A study of Rattus norvegicus with 232 samples.

Results

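Ephx2 encodes soluble epoxide hydrolase, and its level in the brain of 74 inbred rat strains is described here. It is 1 gene of 20859 in the newer gene-level table of the series (v7.1, RefSeq genes) and 1 of 18309 in the older one (v5, Ensembl 96 genes), and it was found in both by its symbol. The animals were untreated young adult male rats of the Hybrid Rat Diversity Panel, and the RNA came from whole brain depleted of ribosomal RNA. The v7.1 table held 214 libraries of 197 animals from 30 HXB/BXH strains, 19 FXLE/LEXF strains and 25 classic inbred strains. HXB/BXH strains are recombinant inbred lines from SHR/OlaIpcv, the spontaneously hypertensive rat, and BN-Lx/Cub, and FXLE/LEXF strains come in the same way from F344/Stm and LE/Stm. A strain had 1 to 3 animals, and SHR/OlaIpcv had 2 animals that were sequenced repeatedly across batches.

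Soluble epoxide hydrolase turns epoxyeicosatrienoic acids into the corresponding diols. The epoxides are made from arachidonic acid by cytochrome P450 epoxygenases of the Cyp2c and Cyp2j families, dilate blood vessels and dampen inflammation, and the diols are mostly less active. The enzyme is found in the cytosol and in peroxisomes, also carries a phosphatase domain, and in brain is made mainly by astrocytes and some neurons. Because it removes a vasodilator, it has long been studied in hypertensive rat strains and in stroke.

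In the v5 annotation on rn6 the gene lies on the minus strand of chromosome 15, from 42745351 to 42794203, in a model with 20 exons and 2060 exon bases. A second v5 feature of the same Ensembl gene runs from 42803668 to 42822543, with 2 exons and 6802 exon bases. It lies within the span of Ptk2b and is left out of the distances given below. All levels below are on the log2 scale of the deposited tables, where a difference of 1 counts as a doubling. The v5 values were adjusted for unwanted variation and transformed by a regularized log, and the steps behind v7.1 are not given. Folds below hold on that scale and need not be ratios of read counts. The mean level of Ephx2 was 8.44, higher than that of 51.1% of the genes of the v7.1 table. The depth behind a value is unknown, since the tables hold no counts, and the number of animals limits the precision. In whole brain, fewer cells of a type and less RNA per cell cannot be told apart.

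Ephx2 differed between strains. Strain means ran from 6.89 in BDIX/NemOdaMcwi to 9.26 in F344/NCrl, a 5.17-fold range, against a pooled SD within strains of 0.34. The strain effect passed the test over the 74 strains (limma F-test, Benjamini-Hochberg adjusted p = 1.34e-11, n = 197 animals), with 37.7% of all genes called in that test. The share of the variance between animals that lay between strains (R2, the broad-sense heritability of a one-way layout) was 0.71 for Ephx2 and 0.45 for the median gene, and 96.1% of genes had a lower R2. With few animals per strain R2 lies well above 0 even without a strain effect, as the paper's permuted values show. An R2 is therefore best read beside those of other genes in the same fit. In the v5 table, which holds 132 animals of 45 strains, the R2 of Ephx2 was 0.86 (adjusted p = 7.18e-22), and 63.9% of genes were called.

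The variation lay mainly among the classic inbred strains. Their R2 was 0.89 (adjusted p = 5.35e-13, n = 66 animals of 25 strains, with 19.2% of genes called), higher than that of 99.2% of genes. Within strains the pooled SD was 0.26. The lowest strain was BDIX/NemOdaMcwi, whose 2 animals had 7.03 and 6.74. BDIX/NemOdaMcwi and BUF/MnaMcwi are the 2 inbred strains sequenced only in batches 18 to 20, for which the submitters' notes name later software versions, and the part of those versions in their values was not tested. The 3 animals of the diabetic strain GK/FarMcwi averaged 7.36 ± 0.17 (SD, n = 3). Of the 24 neighbouring pairs in the order of inbred strains, only these 2 strains were apart by more than the spread within strains, and barely so (a gap of 0.4777 against a limit of 0.4775, not corrected for the number of pairs). With the spread of all 74 strains, and in the reconstructed-gene table, this gap was within the spread, and with batch as a factor over libraries the 2 strains were at 7.05 and 7.08.

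Above GK/FarMcwi came 8 strains with means from 7.39 to 8.00. The next strain, BUF/MnaMcwi, followed closely at 8.07. LH/MavRrrc, the Lyon hypertensive rat, had 7.39, and WKY/NCrl, the usual normotensive control of SHR, had 7.65. DA/OlaHsd, SS/JrHsd, COP/CrCrl, ACI/SegHsd and SR/JrHsd had 7.75, 7.75, 7.77, 7.81 and 7.91. SHRSP/A3NCrl, the stroke-prone relative of SHR, had 8.00 (animals 7.83 and 8.18). SS/JrHsd and SR/JrHsd are the Dahl pair selected for and against salt sensitivity.

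The 15 other strains lay between 8.07 and 9.26. BUF/MnaMcwi had 8.07 in its only animal and WAG/RijCrl 8.31 ± 0.01 (SD, n = 3). Both Brown Norway substrains, all 3 F344 substrains and both Lewis substrains were in this upper part of the order. Within the F344 family F344/Stm had 8.48 ± 0.12, F344/NHsd 8.97 ± 0.13 (SD, n = 3 each) and F344/NCrl 9.26 ± 0.25 (SD, n = 2). F344/Stm was the highest of the 3 in v5 (9.40, 8.94 and 9.11 in the order given) and with batch as a factor over v7.1 libraries (8.99, 8.64 and 8.78). All F344/Stm libraries came from batch 13. LEW/SsNHsd had 8.72 ± 0.29 and LEW/Crl 9.10 ± 0.20 (SD, n = 3 each). BN-Lx/Cub was the most variable inbred strain, with 7.69, 8.51 and 9.12 in its 3 animals. The second highest level, 9.22, came from the only LE/Stm animal. In that animal 12 of 12 liver markers were at their highest among the strain means, and the mean of their log2 levels was 18.17, against 6.71 to 9.80 in the other strains. Ephx2 is abundant in liver, and the part of liver RNA in the LE/Stm value was not tested. Without that animal the strain effect among inbred strains had an adjusted p of 1.16e-12.

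**Figure D1:**
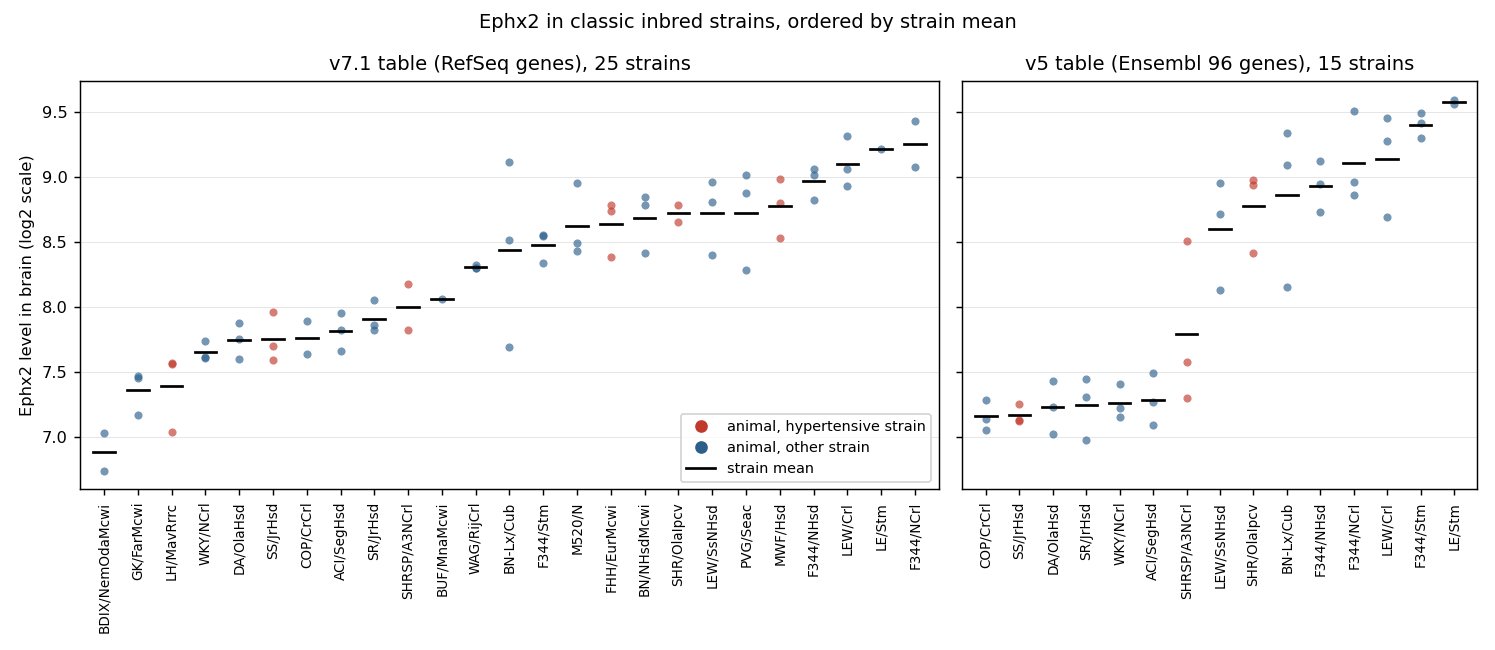
Ephx2 level (log2 scale, y axis) in each animal of the classic inbred strains, ordered by strain mean along the x axis, in the v7.1 table (left) and the v5 table (right). Points are animals, red for the 6 strains taken as hypertensive and blue for the others, and bars are strain means. In v5 the lowest 20 animals end at 7.58 and the next begins at 8.13.

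In the v5 table the inbred strains were split more sharply, with changes of place within the lower and the upper part of the order. COP/CrCrl, SS/JrHsd, DA/OlaHsd, SR/JrHsd, WKY/NCrl and ACI/SegHsd had strain means from 7.16 to 7.29. The strain effect among the 15 inbred strains of v5 passed (R2 = 0.92, adjusted p = 2.11e-11, with 33.7% of genes called). The 8 highest inbred strains had 8.60 (LEW/SsNHsd) to 9.58 (LE/Stm). SHRSP/A3NCrl lay between, at 7.80, with 7.30, 7.58 and 8.51 in its 3 animals. The library with 8.51 is doubtful: it and a library labelled F344/NCrl were each other's nearest library in v5 (Pearson r = 0.864 of deviations from the gene means over 11703 genes), and without both, SHRSP/A3NCrl had 7.44. Neither of them is in the v7.1 table. Of the 44 inbred animals in v5, 20 had values from 6.98 to 7.58 and 24 from 8.13 to 9.60, with no animal between. Normal mixtures fitted to the strain means gave 2 clusters for the 15 inbred strains of v5 and 1 cluster for the 25 of v7.1. These are different sets of strains. The 7 strains lowest in v5 were also the lowest of the shared 15 in v7.1. There they ended with SHRSP/A3NCrl at 8.00, and BN-Lx/Cub came next at 8.44. Strain means of the 15 shared inbred strains had a Pearson r of 0.926 and a Spearman rho of 0.854 between the tables, which share animals.

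The inbred strains were spread over batches, and in batches 8, 10, 11, 16 and 17 their libraries fell into a lower and a higher set. In batch 8 of the v7.1 table, 7 libraries of SR/JrHsd, DA/OlaHsd, COP/CrCrl, ACI/SegHsd, SS/JrHsd and SHRSP/A3NCrl had 7.82 to 8.18, and LEW/Crl and F344/NCrl had 9.32 and 9.43. In batch 10, 7 libraries of 5 strains had 7.60 to 7.83, and the other 4 libraries, from LEW/Crl, SHR/OlaIpcv and F344/NCrl, had 8.93 to 9.08. The gap between the 2 sets was 1.14 in batch 8 and 1.10 in batch 10. In batch 16 LH/MavRrrc had 7.04 and GK/FarMcwi 7.17, and the other 9 libraries began at 8.29. In batch 17 these 2 strains had 7.45 to 7.57 in 4 libraries, and the other 8 libraries had 8.78 to 9.02. Batch 11 had the narrowest of these gaps, 0.54. In batch 13 the widest gap, 0.66, set the LE/Stm library apart from F344/Stm and SHR/OlaIpcv, and in batch 15 the 6 libraries ran from 8.30 to 8.79 with no gap over 0.25.

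With batch as a factor over libraries and the animal as a random block, the 10 lowest inbred strains were the same 10 as without it. Their levels were 7.05 to 7.53, and the next strain, BUF/MnaMcwi, was at 8.24. LE/Stm, with 1 animal, stood at 9.72, above F344/Stm at 8.99.

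**Figure D2:**
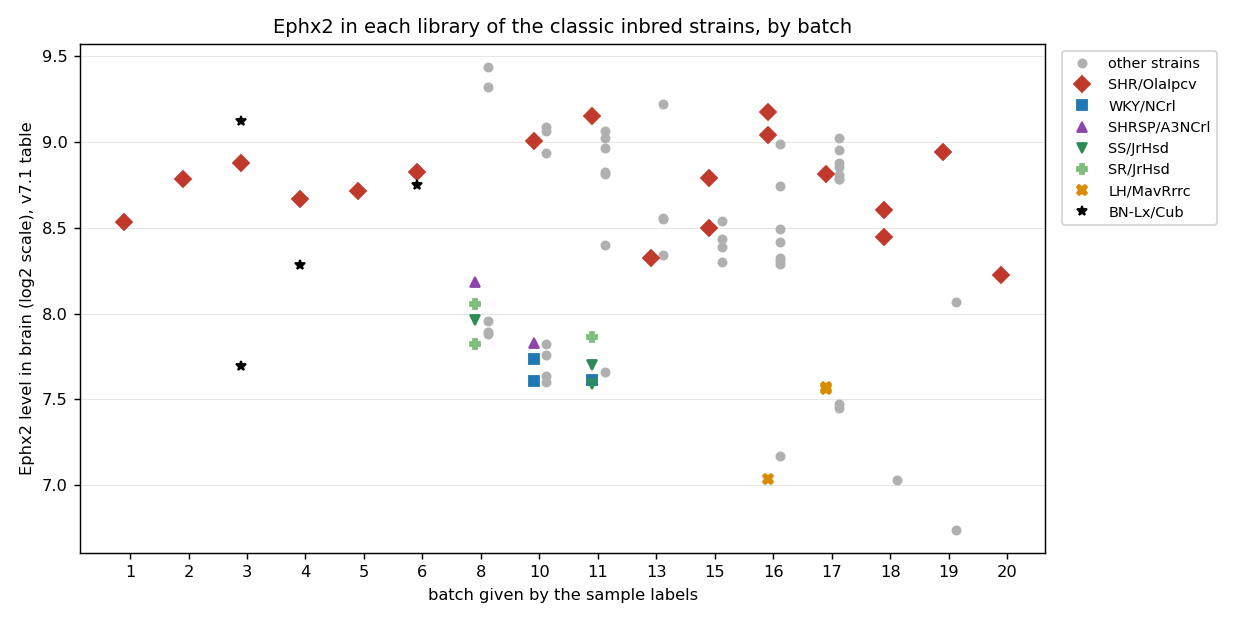
Ephx2 level (log2 scale, y axis) in each v7.1 library of a classic inbred strain, by the batch its sample label gives (x axis). Coloured symbols mark 7 strains named in the text, and grey circles the other inbred strains. SHR/OlaIpcv libraries lie between 8.22 and 9.17 in all batches shown.

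SHR/OlaIpcv, the strain sequenced most often, gives the spread of repeated libraries. Its animal 1 had 8.33 to 9.17 over 12 libraries (median 8.79), and animal 4 had 8.22 to 9.04 over 6 libraries (median 8.65). The SD between libraries of an animal was 0.25 and 0.32. No SHR/OlaIpcv library in the v7.1 table reached as low as the highest SHRSP/A3NCrl animal, at 8.18.

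SHR/OlaIpcv was compared with WKY/NCrl, the pair most used for spontaneous hypertension. Per the paper, SHR/OlaIpcv and BN-Lx/Cub were kept in Prague and sent as brain tissue stored in liquid nitrogen. The other inbred strains of v5 came from Charles River or Envigo, and their brains went into RNAlater. Strain therefore cannot be told apart from source and tissue handling here, nor in SHRSP/A3NCrl against SHR/OlaIpcv and the difference of pairs below. The 2 SHR/OlaIpcv animals had 8.79 and 8.66, and the 3 WKY/NCrl animals had 7.61, 7.74 and 7.61, so the groups did not overlap. The difference was 1.07 ± 0.31 (SE), a 2.10-fold higher level in SHR/OlaIpcv, with 95% limits of 0.47 and 1.67. In the v7.1 fit over all strains it missed the threshold (limma, adjusted p = 0.068, unadjusted p = 0.000636), and 0.825% of genes were called. In the v5 table it was 1.51 ± 0.26, or 2.86-fold, and passed (adjusted p = 4.74e-06, n = 3 animals each). That v5 comparison called 24.4% of all genes. Of the 3 SHR/OlaIpcv animals in v5 (8.98, 8.42 and 8.94), the first was matched to its strain but not to a single sample. It is called unlabelled below, and without it the difference was 1.41 (adjusted p = 0.000139). Fitted over the inbred strains alone, the v7.1 difference passed (adjusted p = 0.00515), and with batch as a factor over libraries it was 1.47 ± 0.27 and passed (adjusted p = 5.23e-05). It also passed, narrowly, with the replicate number as a block, as given in the last paragraph. With batch as a factor over animals it was 0.85 (adjusted p = 0.647). Within batch 10, SHR/OlaIpcv had 9.00 and the 2 WKY/NCrl libraries 7.61 and 7.74. Within batch 11 they had 9.15 and 7.61. The table of reconstructed genes (v7.1 annotation) keeps 4 SHR/OlaIpcv animals, with 8.77, 7.105, 8.07 and 8.64, and there the difference was 1.09 (adjusted p = 0.0754). The WKY/NCrl animals had 6.96 to 7.23 in that table, so 1 SHR/OlaIpcv animal, which is not in the v7.1 RefSeq table, lay within their range. The same animal had 8.42 in v5, above the WKY/NCrl animals of that table (7.16 to 7.41).

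SHRSP/A3NCrl is derived from SHR, and its mean Ephx2 level lay between those of WKY/NCrl and SHR/OlaIpcv in all 4 gene tables. Which of the 2 it was nearer to depended on the table. It was nearer to WKY/NCrl in v7.1, and in v5 and v6 with or without the doubtful SHRSP/A3NCrl library. In the reconstructed-gene table it was nearer to SHR/OlaIpcv with that library and about midway without it. Without that library SHRSP/A3NCrl had 7.97 in v6 (against 7.64 and 8.73) and 7.61 in the reconstructed-gene table (against 7.06 and 8.15). With it, SHRSP/A3NCrl had 8.14 in v6 and 7.82 in the reconstructed-gene table. In v7.1 it was 0.72 ± 0.33 below SHR/OlaIpcv (95% limits of the difference -1.38 and -0.06, adjusted p = 1.00, unadjusted p = 0.0337, with 0.129% of genes called). In v5 the difference was -0.98 ± 0.26 and passed (adjusted p = 0.00808, with 9.58% of genes called). Without the doubtful libraries the v5 difference was -1.34 (adjusted p = 0.000272), and with batch as a factor over v7.1 libraries -1.25 (adjusted p = 0.0132). From WKY/NCrl, SHRSP/A3NCrl differed by 0.35 ± 0.31 (95% limits -0.25 and 0.96, adjusted p = 0.886, with 0.801% of genes called), and by 0.53 in v5 (adjusted p = 0.394, with 1.63% of genes called), or 0.18 without the doubtful libraries (adjusted p = 0.913).

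No such difference was detected in the Dahl pair. The 3 SS/JrHsd animals had 7.70, 7.96 and 7.59, and the 3 SR/JrHsd animals 8.05, 7.82 and 7.86. The groups overlapped. The difference was -0.16 ± 0.27 (95% limits -0.70 and 0.38, adjusted p = 0.971, with 0.944% of genes called), and in v5 -0.08 (95% limits -0.59 and 0.43, adjusted p = 0.947, with 4.19% of genes called). The difference between the 2 pairs, SHR/OlaIpcv minus WKY/NCrl against SS/JrHsd minus SR/JrHsd, was 1.23 ± 0.41 in v7.1 (adjusted p = 0.187, with 0.513% of genes called) and 1.59 ± 0.36 in v5 (adjusted p = 0.000714, with 20.7% of genes called). This last comparison was added after the values were seen.

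**Figure D3:**
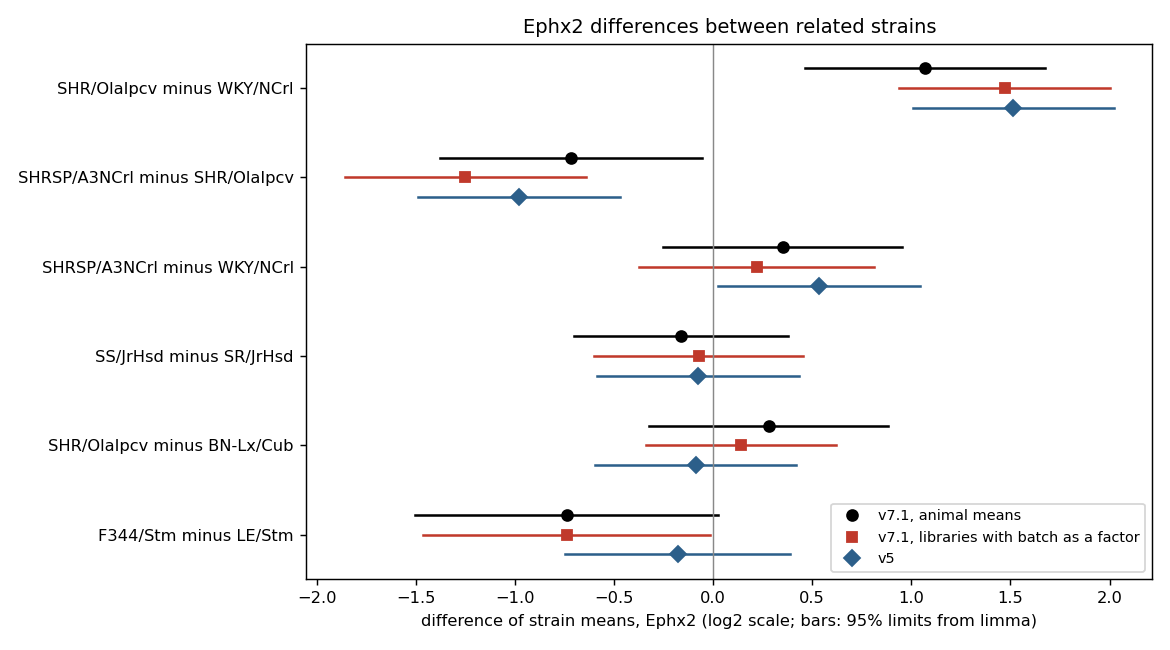
Differences in Ephx2 level between 6 pairs of strains (x axis, log2 scale) in the v7.1 table by animal means (black), in the v7.1 libraries with batch as a factor (red) and in the v5 table (blue). Bars are 95% limits from limma. For F344/Stm minus LE/Stm the v7.1 bars rest on 1 LE/Stm animal and the spread of other strains. SHR/OlaIpcv minus WKY/NCrl lies above 0 in all 3, at 1.07, 1.47 and 1.51.

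No difference was detected between hypertensive strains as a set and other inbred strains. The set was taken from textbook knowledge (SHR/OlaIpcv, SHRSP/A3NCrl, SS/JrHsd, LH/MavRrrc, FHH/EurMcwi and MWF/Hsd), since the labels give no blood pressure, and SS/JrHsd becomes hypertensive mainly on a salt-rich diet. Of the 25 inbred strains in rising order they took places 3, 6, 10, 16, 18 and 21. LH/MavRrrc, SS/JrHsd and SHRSP/A3NCrl had 7.39, 7.75 and 8.00, and FHH/EurMcwi, SHR/OlaIpcv and MWF/Hsd had 8.64, 8.72 and 8.78. The 19 other strains ran from 6.89 to 9.26 with a median of 8.44, so the ranges overlapped throughout.

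The mean of the 6 hypertensive strains was 8.21 ± 0.58 and that of the 19 others 8.30 ± 0.66 (SD over strains). The difference was -0.09 (two-sided exact permutation test over strains, p = 0.770), with 95% limits of -0.66 and 0.48 from limma on the strain means. Across all genes limma called 0 of 20859 in this comparison at an adjusted p under 0.05, and 1626 (7.80%) at an unadjusted p under 0.05. In v5, with 3 hypertensive and 12 other strains, the difference was -0.40 (exact permutation p = 0.543). The sign turned without LH/MavRrrc (0.08) or SS/JrHsd (0.0033), with substrains merged (0.02), and within batches 15 to 17 (0.08; 4 against 5 strains). Within batch 16 alone, the hypertensive strains LH/MavRrrc, FHH/EurMcwi and MWF/Hsd had 7.04, 8.74 and 8.99, and the 2 SHR/OlaIpcv libraries 9.17 and 9.04. The other inbred libraries of that batch had 7.17 (GK/FarMcwi) and 8.29 to 8.49 (PVG/Seac, WAG/RijCrl, BN/NHsdMcwi and M520/N).

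Segregation was examined in the HXB/BXH strains, whose progenitors both lie in the upper part of the order. SHR/OlaIpcv had 8.72 and BN-Lx/Cub 8.44, a difference of 0.28 ± 0.31 (95% limits -0.32 and 0.88, adjusted p = 0.662, with 4.60% of genes called). In v5 the sign was opposite (-0.09, adjusted p = 0.916, with 4.35% of genes called). The 30 recombinant strains ran from 7.89 in HXB10/Ipcv (animals 7.76 and 8.03) to 9.04 in BXH5/Cub (9.00 to 9.08 over 3 animals). Of these strains, 14 lay below both progenitor means in v7.1, 10 between them and 6 above both. In v5 the balance was the other way round, with 6 below both, 8 between and 16 above both.

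No strain effect on Ephx2 was detected within this family. Its R2 was 0.34 (adjusted p = 0.461, unadjusted p = 0.336, n = 88 animals, with 19.2% of genes called), lower than that of most genes, since 20.3% of genes had a lower R2. In v5 the R2 was 0.35 (adjusted p = 0.437, with 23.0% of genes called). The pooled SD within strains was 0.43, against 0.26 in the classic inbred strains, and the 30 strain means had an SD of 0.26. BXH11/Cub had the widest spread, from 7.38 to 8.82. BXH6/Cub had 7.69 to 9.02 and HXB13/Ipcv 7.67 to 9.03, whereas HXB17/Ipcv had 8.80 to 9.01. None of the 29 gaps between neighbouring strains went beyond the spread.

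The HXB/BXH strain means formed a single cluster in v7.1, v5 and v6 and in the reconstructed-gene table, and in v7.1 also with unequal variances. In v5 the BIC of 1 cluster (8.05) was close to that of 3 clusters (7.82). In v5 all 88 animals lay above 7.58, the top of the lower set of inbred animals, from 8.00 to 9.46. In v7.1 the 2 ranges overlapped: 22 of the 88, from 18 strains, lay at or below 8.18, the highest animal of the 10 lowest inbred strains. The lowest of the 88 had 7.38, and the median was 8.51. Strain means of the 30 strains had an r of 0.885 between the 2 tables, again on largely the same animals. Deviations of HXB/BXH animals from their strain means averaged between -0.07 and 0.05 in 6 of 7 batches, and 0.33 in batch 10 (5 libraries, all above their strain mean).

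In the FXLE/LEXF family the range was narrower, but animals of a strain lay closer together. Strain means ran from 8.17 in LEXF11/Stm to 8.93 in LEXF2C/Stm, with a pooled SD of 0.20 within strains. The strain effect passed (R2 = 0.72, adjusted p = 0.0148, n = 43 animals of 19 strains, with 5.08% of genes called). Of the 19 strains, 14 were sequenced only in batches 18 to 20, with the later software versions, and 5 only in earlier batches, and the part of this split in the strain effect was not tested. The 2 LEXF11/Stm animals had 8.10 and 8.25, and the 3 LEXF2C/Stm animals 8.69 to 9.22, without overlap. FXLE20/Stm had 8.22 ± 0.14 and LEXF10B/Stm 8.92 ± 0.16 (SD, n = 3 each). The call was lost with batch as a factor over animals (adjusted p = 0.0503), in the reconstructed-gene table (0.124), and without replicate 1 (0.538) or replicate 2 (0.337).

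Among the FXLE/LEXF strains, 7 lay below the F344/Stm mean, 12 between the progenitors and 0 above LE/Stm. With batch as a factor over libraries these counts were 16, 3 and 0. F344/Stm (animals 8.34 to 8.56) was 0.74 below the only LE/Stm animal, the one with the high liver markers. No test is given, since a single animal has no spread of its own. In v5, with 2 LE/Stm animals at 9.57 and 9.60, the difference was -0.18 (adjusted p = 0.894, with 3.77% of genes called). The strain means of this family also formed 1 cluster.

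**Figure D4:**
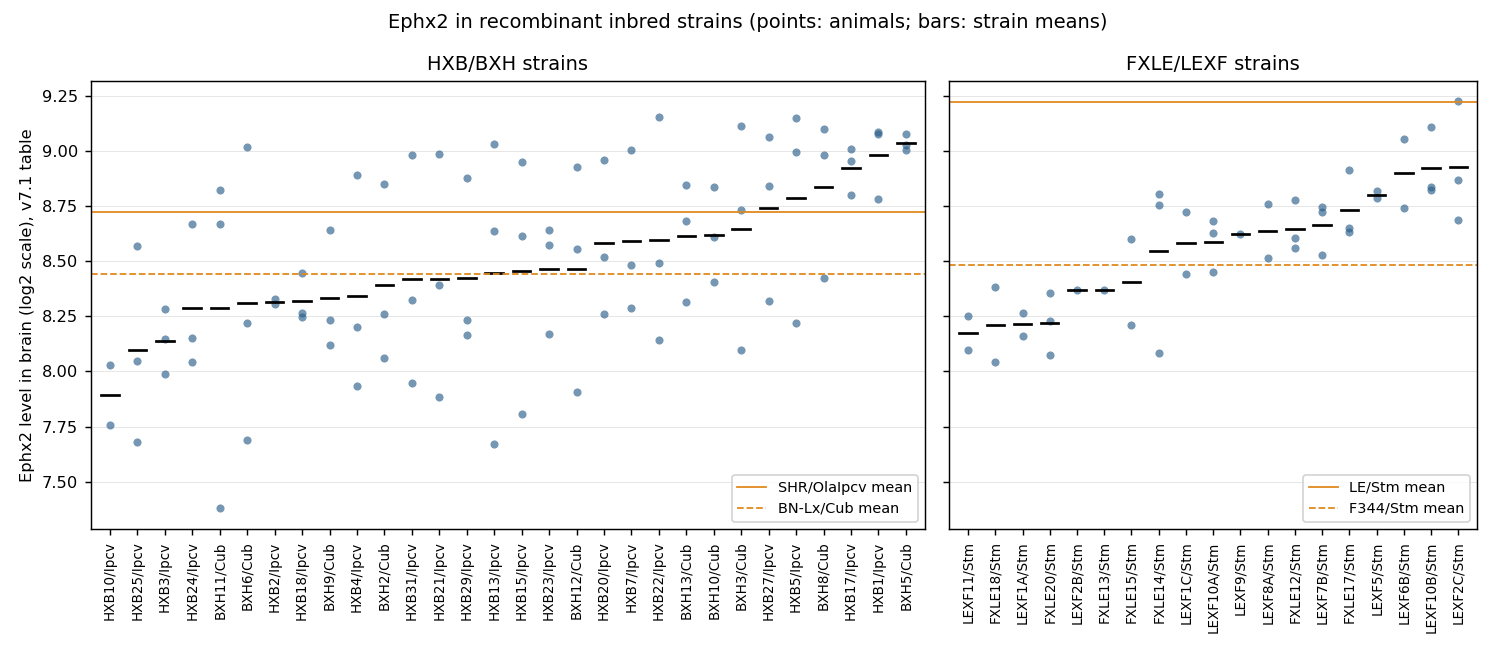
Ephx2 level (log2 scale, y axis) in each animal of the HXB/BXH strains (left) and FXLE/LEXF strains (right), ordered by strain mean along the x axis, in the v7.1 table. Points are animals, black bars strain means, and orange lines the progenitor means. HXB/BXH strain means run from 7.89 to 9.04, and the animals of BXH11/Cub alone from 7.38 to 8.82.

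Ephx2 has 2 RefSeq transcripts in the v7.1 transcript table, NM_022936.1 and the predicted XM_006252147.3. Strain means of NM_022936.1 ran from 5.31 in BDIX/NemOdaMcwi to 8.67 in LE/Stm (R2 = 0.73, adjusted p = 4.81e-12, with 14.4% of transcripts called). XM_006252147.3 ran from 3.82 in the same strain to 8.35 in F344/NCrl (R2 = 0.61, adjusted p = 1.11e-05), and its call was lost without replicates 3 and 4 (adjusted p = 0.122). Both followed the gene over the 74 strain means, with an r of 0.941 and 0.905 with the gene-level value that sums them.

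NM_022936.1 was the higher of the 2 in 61 of 74 strains, among them 24 of 25 inbred strains. The difference between the transcripts ran from -0.58 in BXH13/Cub to 1.898 in SR/JrHsd, with a median of 0.58. SHR/OlaIpcv had 7.86 and 7.68 for NM_022936.1 and 7.64 and 7.28 for XM_006252147.3. WKY/NCrl had 6.30 to 6.56 and 3.37 to 5.89, lower than SHR/OlaIpcv in both. Estimates of overlapping transcripts share reads, and single animals could split them unevenly: 1 SS/JrHsd animal had 4.87 and 6.73, and the other 2 had 6.54 and 6.89 against 4.54 and 5.12. A second reconstructed gene feature carrying the symbol had strain means of 0.77 to 2.64, and showed no strain effect past the threshold (adjusted p = 0.119).

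**Figure D5:**
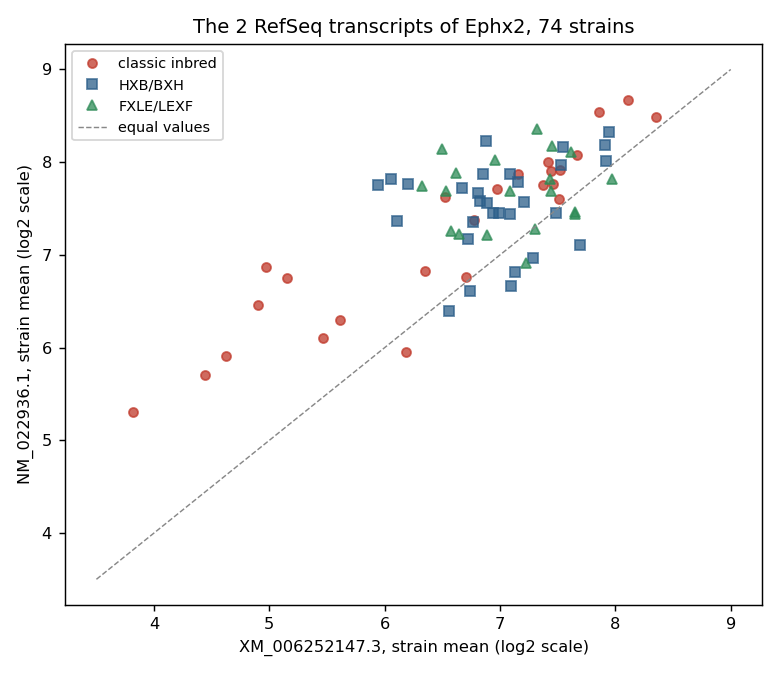
Strain means of NM_022936.1 (y axis) against XM_006252147.3 (x axis), both on the log2 scale, for 74 strains by family. The dashed line marks equal values. 61 strains lie above it, and the lowest points, down to 5.31 and 3.82, are classic inbred strains.

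Few genes followed Ephx2 over the strains. Among 9937 genes with a symbol and a mean above the median, none had an absolute Pearson r over 0.7 with it over the 74 strain means. The 5 most alike were Pik3r4, a regulatory subunit of the class III phosphoinositide 3-kinase (r = 0.61), the adaptor gene Crkl (0.53), and with opposite sign the ribosomal protein genes Rpl23a (-0.52) and Mrpl53 (-0.51) and Ost4 of the oligosaccharyltransferase (-0.50). For Pik3r4 the r was 0.82 within the 30 HXB/BXH strains, 0.60 over the 25 inbred strains and 0.40 over the 19 FXLE/LEXF strains, and for Crkl 0.88, 0.37 and 0.54. Between animals of the same strain it was 0.55 and 0.79. Over the 45 strains of v5 the r was 0.55 for Pik3r4, 0.66 for Crkl, -0.47 for Ost4 and -0.10 for Mrpl53, so that the likeness of Mrpl53 was not seen there. Of these genes only Pik3r4 had a strain effect past the threshold (limma F-test, adjusted p = 0.0392, with 37.7% of all genes called). Crkl, Rpl23a, Mrpl53 and Ost4 did not (adjusted p = 0.729, 0.069, 0.407 and 0.297), so their strain means hold much of the spread between animals. The r values share libraries and are descriptions.

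The genes around Ephx2 on chromosome 15 were read in the HXB/BXH strains, where linked blocks are inherited together. Ptk2b, the tyrosine kinase gene 5966 bp from the 20-exon Ephx2 model on rn6, had an r of 0.67 with Ephx2 over the 30 strain means. The scavenger receptor gene Scara3, 107 kb away, had 0.79. Clu, the clusterin gene, 79.5 kb away on the same side as Scara3, had 0.48. The remaining 7 of the 10 nearest genes (Trim35, Ccdc25, Stmn4, Adra1a, Bnip3l, Pnma2 and Spryd7) ran from -0.48 to 0.41, and the median absolute r of 228 genes of the chromosome was 0.28. In these strains Crkl on chromosome 11 had an r of 0.88 and Pik3r4 on chromosome 8 had 0.82. Both were picked for likeness to Ephx2 over all strains. An r of 0.67 or 0.79 was thus not confined to the neighbourhood of Ephx2. Of the 10, Ptk2b and Scara3 had a strain effect in HXB/BXH (adjusted p = 0.00124 and 0.0108), against 19.2% of all genes. Since no strain effect on Ephx2 was detected in this family, its strain means hold much of the spread between animals, and between animals of the same strain the r was 0.38 for Ptk2b and 0.34 for Scara3. Over the 19 FXLE/LEXF strains the r had the opposite sign, -0.22 for Ptk2b and -0.56 for Scara3, and over the inbred strains, where Ephx2 varied most, it was 0.04 and 0.22.

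Pathway genes here are the other epoxide hydrolases, the arachidonate lists and a list of peroxisomal enzymes. Of these genes 50 were measured, and 31 of them had a strain effect over the 74 strains, against 37.7% of all genes. The count was 27 without LE/Stm, against 37% of all genes. It was 22 without replicate 1, 12 without replicate 2, and 10 of 22 with low genes removed. These last fits use fewer animals or genes, and their share of all genes called is not given here. Their counts therefore cannot be read against the 37.7%. No gene of these pathway lists had an r with Ephx2 outside -0.24 to 0.38 over the strain means. Among the other 4 epoxide hydrolases, Ephx4 was called (R2 = 0.53, adjusted p = 0.00277, 9.43 to 10.04) and Ephx1, the microsomal enzyme, Ephx3 and Lta4h were not. All 8 measured epoxygenase genes were called, 4 of them without LE/Stm. Cyp2j10 varied most by heritability (R2 = 0.86, 6.73 in BN/NHsdMcwi to 8.45 in BUF/MnaMcwi), and its r with Ephx2 was -0.18. Cyp2c6v1, Cyp2c11, Cyp2c22 and Cyp2c23 were highest in the LE/Stm animal with the high liver markers, Cyp2c11 at 17.78.

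The omega-hydroxylases, which route arachidonic acid to the vasoconstrictor 20-HETE, had 4 of 7 measured genes called (Cyp4f1, Cyp4f4, Cyp4f6 and Cyp4f17). The share of all genes called in this test, 37.7%, applies to each of these counts. Of the genes that release arachidonic acid, 4 of 6 were called (Pla2g4a, Pla2g6, Mgll and Faah), and of the cyclooxygenase and prostaglandin synthase genes 6 of 9, among them Ptgs1 and Ptgs2. Lipoxygenase and leukotriene genes had 5 of 6, and peroxisomal enzymes 3 of 10, among them Cat, the catalase gene. In these lists the largest R2 was 0.80, for the prostaglandin D synthase gene Hpgds. A mean above the table median was seen in 0 of 7 omega-hydroxylases, 0 of 6 lipoxygenase and leukotriene genes and 1 of 8 epoxygenases. Calls in those lists rest mostly on genes of low level.

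Between SHR/OlaIpcv and BN-Lx/Cub, where Ephx2 did not pass, 4 of the 50 genes were called, against 4.60% of all genes (1.91% higher and 2.69% lower in SHR/OlaIpcv). Cyp4f6, Ptges and Alox15 were higher in SHR/OlaIpcv, by 0.73 (limma, adjusted p = 0.00868), 0.73 (0.0124) and 1.26 (0.0260). Cyp4f6 and Alox15 come from the lists in which no gene had a mean above the median. Hpgds was lower by 1.96 on the log2 scale (fitted difference -1.96, adjusted p = 4.82e-10). Against WKY/NCrl 2 of the 50 were called, against 0.825% of all genes: Alox15 was higher in SHR/OlaIpcv by 1.92 (adjusted p = 0.000393) and Hpgds differed by -1.45 (adjusted p = 2.30e-05). In the comparison of hypertensive with other strains limma called 0 of the 50. At an unadjusted p under 0.05 there were 3 of the 50 (Pla2g6, Ptgs2 and Hpgds), a share below the 7.80% of all genes.

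Markers of brain cell types were present in every strain. The mean log2 level of the astrocyte list ran over the strains from 13.05 to 13.36, that of the neuron list from 13.69 to 14.01 and that of the endothelial list from 10.19 to 10.52. The oligodendrocyte list ran from 13.81 to 14.44, the microglia list from 9.13 to 9.72 and the choroid plexus list from 9.16 to 10.11. Over the 74 strain means the r of the astrocyte, neuron and endothelial lists with Ephx2 was 0.19, 0.09 and 0.26, and between animals of the same strain 0.33, 0.30 and 0.36. Over the strain means the r of the oligodendrocyte, microglia and choroid plexus lists was 0.03, -0.14 and -0.04. The r for the liver list was 0.18. Among the single markers of brain cells the r ran from -0.33 for the microglial gene Aif1 to 0.43 for Flt1, an endothelial receptor of vascular growth factor, whose r was 0.58 over the inbred strains. These 2 genes were picked after their values were seen.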

How the data were processed

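Total RNA libraries depleted of ribosomal RNA were made from whole brain. Per the paper's methods, reads were trimmed with cutadapt (1.9.1 in the submitters' processing notes), aligned with HISAT2 and quantified with RSEM, and for v5 the authors removed 1 factor of unwanted variation and deposited values after a regularized log transformation. The deposited v5, v6 and v7.1 tables hold log2 values. The submitters' processing notes name HISAT2 2.1.0, RSEM 1.3.1, Bowtie2 2.3.4.3 and StringTie 1.3.5 for 193 samples (batches 1 to 17) and HISAT2 2.2.1, RSEM 1.3.3, Bowtie2 2.4.5 and StringTie 2.2.1 and 1.3.5 for the other 39 (batches 18 to 20). Which of these steps made v6 and v7.1, and the build of v7.1, are not given in the sources used here. No counts were used, so depth and counting error are unknown.

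Libraries were matched to samples by name (0 columns left unused, and 1 SHR/OlaIpcv column of v5 known by its strain only and without a batch), spike-ins were removed (73 rows in v7.1, 76 in v5), and libraries of an animal were averaged. Strain effects and contrasts were tested with limma 3.58.1 (R 4.3.3, trend = TRUE, tested on simulated data) on 1 value per animal, with Benjamini-Hochberg adjustment over all genes and a threshold of 0.05, and the hypertensive strains with an exact permutation test over strain means. Clusters were counted with mclust 6.1.1. A neighbouring gap was called beyond the spread by two-sided 95% limits from the pooled SD. Alternatives were other tables, batch terms, a replicate block, a filter on low genes, median centring and left-out animals or strains. The pathway and marker genes named are those of fixed lists called in a strain effect or progenitor contrast, plus the other epoxide hydrolases, 2 marker genes picked after their values were seen, the 5 genes most like Ephx2 and its 10 nearest neighbours, both among genes with a mean above the median. Ephx2, the lists and the strain sets were chosen with earlier results of these data known. Names and positions came from the deposited annotations and a RefSeq gene table. Nothing says that same-numbered animals of different strains are related. By number, SS/JrHsd and SR/JrHsd animals deviated together (r = 0.555, 0.334 and 0.197 in v7.1), so that pair was also fitted with the replicate number as a block. For 26 of 232 samples the title gives another batch than the batch field, and the batch field was used.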

Additional observations from a re-analysis of the deposited data

Results flagged for a closer look

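In the v5 table, the SHR/OlaIpcv minus WKY/NCrl difference in Ephx2 exceeded the SS/JrHsd minus SR/JrHsd difference by 1.59 ± 0.36 (SE; limma, adjusted p = 0.000714), in a test of the difference between both pairs; 20.7% of all genes were called in that test. In v7.1 the same difference was 1.23 and did not pass (adjusted p = 0.187). SHR/OlaIpcv came from another source than WKY/NCrl, so strain and source cannot be told apart.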

How the results depend on the processing

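The strain effect on Ephx2 over all strains and over the inbred strains passed the test, and that over the HXB/BXH strains did not, under every alternative run (20, 22 and 20). Alternatives that left out inbred libraries only, or kept the first library of each animal, used the same HXB/BXH animals and values. They repeat the HXB/BXH test and add nothing to it. The fit over the inbred strains alone likewise repeats the inbred test. That over the FXLE/LEXF strains was lost in v6 (adjusted p = 0.0986), which holds 5 of the 19 strains (13 animals). It was also lost in the reconstructed-gene table (0.124) and with batch over animals (0.0503). With replicates left out the adjusted p was 0.0211 to 0.538 (0.337 without replicate 2). SHR/OlaIpcv minus WKY/NCrl kept its sign in 23 of 23 alternatives. That sign was fixed in fits that change only other strains or the spread. The difference missed the threshold in 12 of the 23, as in the main fit, and passed in 11. It passed in v5 (1.51, also without the doubtful libraries, over the inbred strains alone and with a replicate block), in v5 with batch (1.59, which drops the unlabelled SHR/OlaIpcv animal) or without that animal (1.41), in v6 (1.10, also without the doubtful library), in v7.1 over the inbred strains alone (1.07) and with batch over libraries (1.47). With replicates left out it was 0.98 to 1.11. SHRSP/A3NCrl minus SHR/OlaIpcv passed in v5 (-0.98, also over the inbred strains alone and with a replicate block; -1.34 without the doubtful libraries; -0.97 with batch; -0.88 without the unlabelled animal) and with batch over v7.1 libraries (-1.25). The difference of pairs passed in v5 (1.59, 1.76 with batch and 1.49 without the unlabelled animal), over the v7.1 inbred strains alone (1.23) and with batch over libraries (1.54). Out of 23 alternatives each, SHRSP/A3NCrl minus SHR/OlaIpcv missed the threshold in 16 and the difference of pairs in 15. SHR/OlaIpcv minus BN-Lx/Cub turned negative in v5 (-0.0886, also without the doubtful libraries, over the inbred strains alone and with a replicate block, -0.39 with batch and -0.19 without the unlabelled animal), in the reconstructed-gene table (-0.12, with or without the doubtful libraries), with batch over animals (-0.51), with the first library of each animal (-0.0048) and without replicate 1 (-0.16), and never passed. It ran from -0.16 to 0.62 with replicates left out. The hypertensive difference turned positive without SS/JrHsd (0.0033) or LH/MavRrrc (0.0753), with substrains merged (0.0190) and within batches 15 to 17 (0.0795), and passed under no alternative. With batch over animals it was not run, because some strains then rest on few libraries. XM_006252147.3 ran from 0.00520 to 0.122 with replicates left out. Pathway genes called, 31 of 50, fell to 10 (of 22) with genes below the median removed, which tests fewer genes, and ran from 12 to 28 with replicates left out, and rose to 39 with batch over animals. Of the 10 nearest genes with a mean above the median, 4 were called over all strains (37.7% of all genes) and 1 over the inbred strains (19.2% of all genes). The count was 2 to 3 with replicates left out and 6 with batch over animals. The share of all genes called with replicates left out, low genes removed or batch over animals is not given here. Counts under those alternatives therefore have no background beside them. The causes were not tested. Alternatives over the inbred strains alone, with batch over libraries, or without doubtful or unlabelled libraries, and v5 with batch or block, were chosen after seeing the data.

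With the replicate number as a block, SHR/OlaIpcv minus WKY/NCrl was 1.296 in v7.1 and passed (adjusted p = 0.0479), although these strains share 1 number only. The paired SS/JrHsd minus SR/JrHsd difference stayed at -0.16 (adjusted p = 0.966). No other call on Ephx2 in v7.1 changed with the block, and 32 pathway genes were called, a count given without the share of all genes. Deviations of same-numbered animals had a mean r of 0.0115, and of other animals -0.0057. Depth could not be used to set precision, since no counts are given.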
